A study of Mus musculus with 22 samples.

Results

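*Trp53*, the gene of the tumour suppressor p53, was examined together with 9 genes of its circuit in RNA sequencing (RNA-seq) of mouse testes with and without MLX. The 10 genes were taken by symbol from the testes count table (*Trp53*, *Mdm2*, *Mdm4*, *Zmat3*, *Phlda3*, *Sesn1*, *Sesn2*, *Trp53inp1*, *Gadd45a* and *Perp*), and each of the 10 had a row among 17931 gene symbols. p53 is a transcription factor that is stabilised by DNA damage and other stresses and then activates genes for cell cycle arrest, DNA repair, metabolic control and apoptosis. Its protein level is set mainly by MDM2, a ubiquitin ligase that marks p53 for degradation and is itself encoded by a p53 target gene, and by the related inhibitor MDM4. In the testis p53 is best known for its part in the removal of damaged germ cells. MLX is a basic helix-loop-helix leucine zipper partner of MondoA, ChREBP and MNT, and binds E-box elements.

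RNA was taken from whole testes of 3 wild-type (WT) and 3 MLX knockout (MLX KO) males at 7 months of age, with no treatment. The MLX KO males carried a constitutive deletion of *Mlx* exons 3 to 6 in every tissue, so that germ cells and somatic cells all lacked the DNA-binding and dimerization region, and the WT males were age-matched littermates known to be fertile. The labels number the libraries as 3 pairs. Which of the lines carrying the allele gave the KO males was not given in the sources used here.

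Library totals lay between 16674678 and 19742726 counts. *Mlx* itself differed little between the genotypes, at 6.13 ± 0.611 CPM (counts scaled to the TMM-adjusted library total; mean ± SD, n = 3) in WT and 5.43 ± 0.591 in MLX KO (log2 fold change −0.18, adjusted p = 0.326, edgeR). Exons outside the deletion remain in the allele, so this count does not check the genotype labels. Across all 14640 genes with enough counts to test, 45.4% passed an adjusted p of 0.05 in edgeR, 24.8% higher and 20.6% lower in MLX KO, and the 2 genotypes did not overlap in CPM for 56.2%. These shares are the background for each count given here. Fold changes are MLX KO over WT, on CPM scaled by the trimmed mean of M-values (TMM).

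The levels of cell type markers differed with genotype. All 8 Leydig cell markers tested were higher in MLX KO, with a summed level of 865 to 885 CPM in WT against 1859 to 2446 in MLX KO. All 10 Sertoli cell markers were higher (1017 to 1066 against 1559 to 1897 CPM), as were all 9 macrophage markers tested (86.3 to 92.0 against 185 to 190 CPM). All 9 elongating spermatid markers were lower (22883 to 23843 against 13572 to 16545 CPM), as were all 8 round spermatid markers (1593 to 1657 against 1332 to 1414 CPM) and 8 of 10 spermatocyte markers (1857 to 1910 against 1624 to 1703 CPM). Of 9 spermatogonial markers tested, 2 were higher and 1 was lower (146 to 151 against 161 to 172 CPM). Endothelial markers were higher for 2 of 7 (22.0 to 26.7 against 36.0 to 39.5 CPM). Peritubular myoid markers were higher for 4 and lower for 1 of 6 (310 to 369 against 309 to 325 CPM). Most of that sum was *Actg2*, the listed gene that was lower (mean 267 CPM in WT against 204 in MLX KO). The sum therefore does not show the rise of the 4 that were higher, *Acta2*, *Myh11*, *Tagln* and *Des*. The single epididymal marker with enough counts, *Rnase10*, was lower (mean 4.38 CPM in WT against 2.73 in MLX KO). It made up most of the summed list (4.11 to 5.02 against 2.66 to 3.34 CPM). None of the listed markers with a row was at 0 in every library, although the epididymal markers *Lcn5* and *Adam7* had at most 1 count in any library. The part of these markers in the differences of the p53 circuit was not tested, and in whole tissue a change in the number of cells of a type cannot be told apart from a change in RNA per cell.

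The promoters of the circuit were read from RefSeq (GRCm38.p6) as the 250 bases before each annotated start. They are shown because p53 response elements repeat the decameric p53 motif, and because MLX and its partners bind the E-box CACGTG. RefSeq gave 9 such windows for 7 of the 10 genes, with no entry for *Zmat3*, *Trp53inp1* and *Perp*. CACGTG was in 0 of the 9 windows and in 6.02% of all 32851 promoter windows. The decameric p53 motif, searched on both strands as a single unit, was in 4 of the 9 windows and in 7.13% of all windows. Repeats of the unit, as in a whole response element, were not searched for. No motif overlapped another. The 4 matches are printed 5′ to 3′ on the strand of the gene, each as 30 bases with the p53 motif in capitals.
*Trp53*, chr11:69580274-69580303, plus strand: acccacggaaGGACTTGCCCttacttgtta
*Mdm2*, chr10:117710925-117710954, minus strand: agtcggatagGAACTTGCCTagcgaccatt
*Sesn1*, chr10:41887256-41887285, plus strand: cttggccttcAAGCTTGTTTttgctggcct
*Gadd45a*, chr6:67037428-67037457, minus strand: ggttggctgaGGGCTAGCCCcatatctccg
Distances were counted from the RefSeq start. The match began 75 bases upstream in *Trp53*, 186 in *Mdm2*, 173 in *Sesn1* (before the downstream of its starts) and 40 in *Gadd45a*. The gene positions given below are from GENCODE, in which *Gadd45a* begins at chr6:67037457 on the minus strand. By those positions the printed stretches of *Gadd45a* and *Sesn1* lie within the genes. A match describes the letters in the window and shows no binding.

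The whole windows of *Mdm2*, the gene of the p53 inhibitor, and of *Phlda3*, which had the largest fold change of the 10 genes, are given for comparison, with the p53 motif in capitals where it is present.
*Mdm2*, chr10:117710759-117711008, minus strand: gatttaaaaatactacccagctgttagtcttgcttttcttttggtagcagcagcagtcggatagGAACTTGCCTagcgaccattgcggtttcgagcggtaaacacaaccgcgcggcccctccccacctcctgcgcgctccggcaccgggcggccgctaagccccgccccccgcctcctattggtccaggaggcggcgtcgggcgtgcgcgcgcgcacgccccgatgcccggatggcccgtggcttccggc
*Phlda3*, chr1:135765835-135766084, plus strand: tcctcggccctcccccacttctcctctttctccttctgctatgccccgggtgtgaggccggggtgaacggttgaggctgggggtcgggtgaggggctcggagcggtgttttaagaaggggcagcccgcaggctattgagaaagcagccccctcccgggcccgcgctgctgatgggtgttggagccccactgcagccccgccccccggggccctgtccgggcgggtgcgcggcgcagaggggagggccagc
The *Phlda3* window held neither motif.

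The 10 genes did not all move in one direction. In MLX KO testes *Phlda3* and *Gadd45a* rose more than 2-fold, *Sesn1*, *Sesn2* and *Trp53inp1* rose by about 1.3-fold, and *Trp53* rose by 1.27-fold with overlapping libraries. *Mdm2* fell slightly, and *Mdm4*, *Zmat3* and *Perp* did not pass the test. Of the 10 genes 6 were higher and 1 was lower, against 24.8% and 20.6% of all genes. The median log2 fold change of the 10 was 0.35, and the median of all tested genes was 0.03 with an interquartile range of −0.17 to 0.36. The KO libraries lay wholly above the WT libraries for 6 of the 10 genes, against 30.3% of all genes. Counting either direction, 8 of the 10 did not overlap, against 56.2% of all genes. The count of 7 that passed became 5 without WT replicate 1, WT replicate 2, KO replicate 2 or KO replicate 3, each left out in turn.

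**Figure D1:**
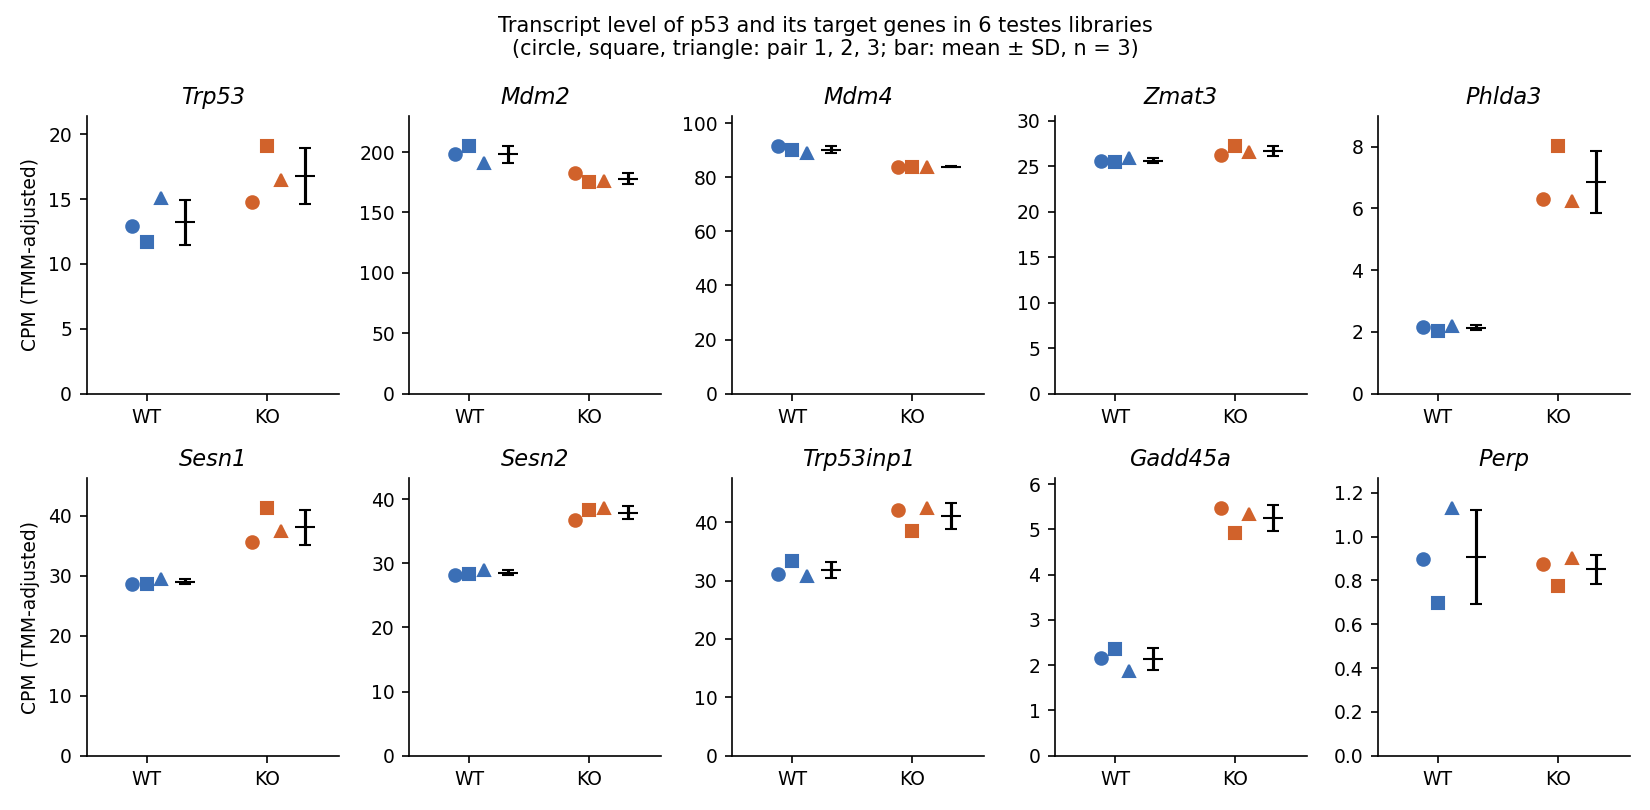
Level of each of the 10 genes in the 6 testes libraries, in CPM with TMM-adjusted library sizes on a linear axis from 0, WT on the left and MLX KO on the right of each panel. Circles, squares and triangles are pairs 1, 2 and 3, and the bar gives the mean ± SD (n = 3). The KO libraries of *Phlda3* (6.25 to 8.02 CPM) and *Gadd45a* (4.92 to 5.47 CPM) stand well above the WT libraries, whereas those of *Trp53* and *Perp* overlap with WT.

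*Trp53* (chr11:69580359-69591873, plus strand, mm10) was at 12.9, 11.7 and 15.1 CPM in WT replicates 1 to 3 and at 14.8, 19.1 and 16.5 CPM in MLX KO replicates 1 to 3. KO replicate 1 lay below WT replicate 3, so the groups overlapped, although the KO library was the higher of the numbered pair in all 3 pairs (log2 differences 0.20, 0.71 and 0.13). The mean went from 13.2 ± 1.7 to 16.8 ± 2.15 CPM, a log2 fold change of 0.34 (SE 0.12, adjusted p = 0.0366, edgeR). The call was not stable. The adjusted p was 0.0955 without WT replicate 1, 0.141 without WT replicate 2, 0.143 without KO replicate 2 and 0.067 without KO replicate 3, and DESeq2 gave 0.0679, or 0.16 with the pair number as a block. *Trp53* and the targeted *Mlx* are both on chromosome 11, 31.5 Mb apart. A processed copy, *Trp53-ps* (chr17:54419597-54421236), has no row in the table, and how reads shared with it were counted is not given in the sources used here.

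Of the inhibitors, *Mdm2* (chr10:117688875-117710758, minus strand) had the highest level per exon length of the 10 genes (38.9 CPM per kb in WT). It was at 198, 205 and 191 CPM in WT against 183, 175 and 176 CPM in MLX KO. Every KO library was below every WT library, and the shift was small: 198 ± 7.19 against 178 ± 4.46 CPM, a fold of 0.901 (log2 fold change −0.15, SE 0.05, adjusted p = 0.0252, edgeR). The decrease depended on the scaling, since on library size alone the log2 fold change was −0.01 (adjusted p = 0.843), a scaling under which the median of all genes moved from 0.03 to 0.16. It also missed the threshold without WT replicate 1 (adjusted p = 0.067), WT replicate 2 (0.113), KO replicate 2 (0.102) or KO replicate 3 (0.0911).

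*Mdm4* (chr1:132959484-133030561, minus strand) encodes the MDM2 relative that binds and inhibits p53 without strong ligase activity of its own. Its level was 91.6, 90.2 and 89.1 CPM in WT against 83.9, 84.0 and 84.0 CPM in MLX KO. The genotypes did not overlap, and the log2 fold change of −0.11 (SE 0.04) gave an adjusted p of 0.0729 in edgeR, above the threshold. With DESeq2's size factors the same test gave −0.13 (adjusted p = 0.0346), and on library size alone the sign turned, to 0.03 (adjusted p = 0.551).

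Ratios of counts within a library do not depend on the scaling. The log2 ratio of *Mdm2* to *Trp53* was 3.93, 4.13 and 3.66 in WT against 3.63, 3.20 and 3.41 in MLX KO. The genotypes were separated by a narrow gap, with *Mdm2* counts 15.0-fold those of *Trp53* in WT against 10.7-fold in MLX KO. The difference of −0.49 had p = 0.1 in a two-sided exact permutation test, the smallest p that 3 libraries against 3 allow, so it could not reach 0.05. The log2 ratio of *Mdm4* to *Mdm2* was −1.11, −1.19 and −1.10 in WT against −1.13, −1.06 and −1.07 in MLX KO, a difference of 0.04 that lay within the spread of the libraries (exact permutation p = 0.3).

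*Phlda3* (chr1:135766119-135769136, plus strand) encodes a pleckstrin homology domain protein that competes with AKT for membrane lipids and so restrains AKT. It had 41, 32 and 39 counts in WT against 122, 145 and 118 counts in MLX KO, or 2.16, 2.03 and 2.20 against 6.29, 8.02 and 6.25 CPM. The lowest KO library was well above the highest WT library, and all 3 pairs rose by similar amounts (log2 1.54, 1.98 and 1.51). The mean rose 3.2-fold, from 2.13 ± 0.0861 to 6.85 ± 1.01 CPM (log2 fold change 1.68, SE 0.17, adjusted p = 3.04e-05, edgeR). Its log2 fold change exceeded that of 98.8% of the genes tested, 179 genes having a larger one.

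*Gadd45a* (chr6:67035096-67037457, minus strand), a stress-induced gene of growth arrest and DNA repair, was of similarly low abundance. It had 41, 37 and 33 counts in WT against 106, 89 and 101 in MLX KO, or 2.16, 2.35 and 1.86 against 5.47, 4.92 and 5.35 CPM. The genotypes were well separated, and the mean rose 2.47-fold, from 2.13 ± 0.248 to 5.25 ± 0.286 CPM (log2 fold change 1.31, SE 0.16, adjusted p = 0.000125, edgeR). Its log2 fold change exceeded that of 97.2% of the genes tested. Exons of *Gadd45a* share 337 bases with the opposite-strand *E230016M11Rik*, which has no row in the table. The strand setting of the counting was not given in the sources used here, so reads from that stretch cannot be assigned to either gene.

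The sestrins couple stress to metabolism: *Sesn1* and *Sesn2* encode inhibitors of mTORC1 signalling, Sestrin2 being also a leucine sensor. *Sesn1* (chr10:41809935-41908424, plus strand) was at 28.7, 28.7 and 29.5 CPM in WT against 35.6, 41.3 and 37.5 CPM in MLX KO. *Sesn2* (chr4:132492032-132510501, minus strand) was at 28.1, 28.4 and 28.9 CPM in WT against 36.7, 38.3 and 38.6 CPM in MLX KO. For both genes every KO library was above every WT library, and the WT libraries were close together. *Sesn1* rose 1.32-fold (log2 fold change 0.40, SE 0.07, adjusted p = 0.00108, edgeR) and *Sesn2* 1.33-fold (0.41, SE 0.06, adjusted p = 0.000361). The log2 ratio of *Sesn2* to *Sesn1* was −0.03, −0.02 and −0.03 in WT against 0.04, −0.11 and 0.04 in MLX KO, a difference of 0.02 (exact permutation p = 1.0) whose sign changed when KO replicate 1 or KO replicate 3 was left out (−0.01 each).

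*Trp53inp1* (chr4:11156431-11174379, plus strand) encodes a stress-induced nuclear protein that takes part in p53 phosphorylation and autophagy. It was at 31.2, 33.4 and 30.8 CPM in WT against 42.1, 38.4 and 42.4 CPM in MLX KO. All KO libraries were above all WT libraries, and pair 2 showed the smallest difference (log2 0.20, against 0.43 and 0.46). The mean rose 1.29-fold, from 31.8 ± 1.38 to 41.0 ± 2.23 CPM (log2 fold change 0.37, SE 0.07, adjusted p = 0.00122, edgeR). *Phlda3*, *Gadd45a*, *Sesn1*, *Sesn2* and *Trp53inp1* passed under each of 14 alternative fits, with adjusted p of at most 0.0136.

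**Figure D2:**
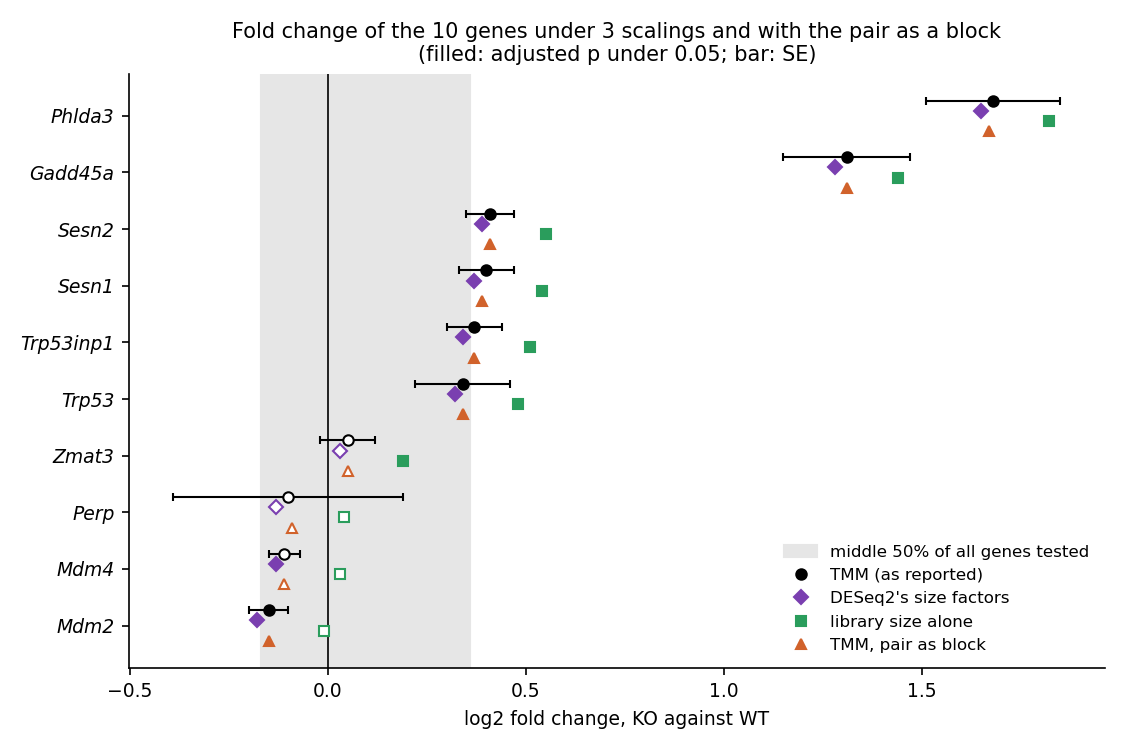
Log2 fold change of MLX KO over WT for the 10 genes under 3 scalings and with the pair number as a block. Points are filled where the adjusted p was under 0.05, bars give the SE of the reported fit, and the grey band is the interquartile range of all tested genes (−0.17 to 0.36). *Phlda3* (1.68) and *Gadd45a* (1.31) lie far to the right of the band under every scaling shown, and *Mdm4* and *Perp* change sign on library size alone.

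*Zmat3* (chr3:32334792-32366014, minus strand), which encodes an RNA-binding zinc finger protein and is among the direct p53 targets, was nearly level. It was at 25.6, 25.4 and 25.9 CPM in WT against 26.2, 27.2 and 26.5 CPM in MLX KO. The libraries did not overlap, yet the gap was small beside the error of the fit (log2 fold change 0.05, SE 0.07, adjusted p = 0.536, edgeR). On library size alone the value was 0.19 with an adjusted p of 0.0444. *Perp* (chr10:18845020-18857073, plus strand), which encodes a membrane protein of desmosomes and p53-dependent apoptosis, had 17, 11 and 20 counts in WT against 17, 14 and 17 in MLX KO. The groups overlapped, and its log2 fold change of −0.10 (SE 0.29, adjusted p = 0.8, edgeR) changed sign to 0.08 without WT replicate 3. At this depth changes of the size seen for *Sesn1* or *Trp53inp1* would not have been detectable for *Perp*.

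To compare the genes with each other, CPM were divided by the length of all annotated exons of the gene in kilobases. In WT testes *Mdm2* was highest at 38.9 CPM per kb, followed by *Sesn2* at 8.19, *Sesn1* at 7.28, *Mdm4* at 6.1 and *Trp53inp1* at 4.91. *Trp53* followed at 3.27 CPM per kb, *Zmat3* at 2.24, *Phlda3* at 1.37, *Gadd45a* at 1.2 and *Perp* at 0.465. Every neighbour in this WT order was separated by non-overlapping libraries except *Phlda3* and *Gadd45a*. In MLX KO *Mdm2* was still highest (35.1 CPM per kb) and *Perp* lowest (0.436 CPM per kb). *Trp53inp1* (6.33 CPM per kb) came before *Mdm4* (5.67), and *Phlda3* (4.4) was next to *Trp53* (4.15) with overlapping libraries. *Gadd45a* (2.97 CPM per kb) came before *Zmat3* (2.33). The exon lengths count every annotated transcript, which lowers the values of genes with long alternative exons such as *Mdm4* and *Zmat3*. In WT the CPM per kb of *Mdm2* exceeded those of 88.2% of tested genes, those of *Trp53* 45.2%, and those of *Perp* 13.6%.

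**Figure D3:**
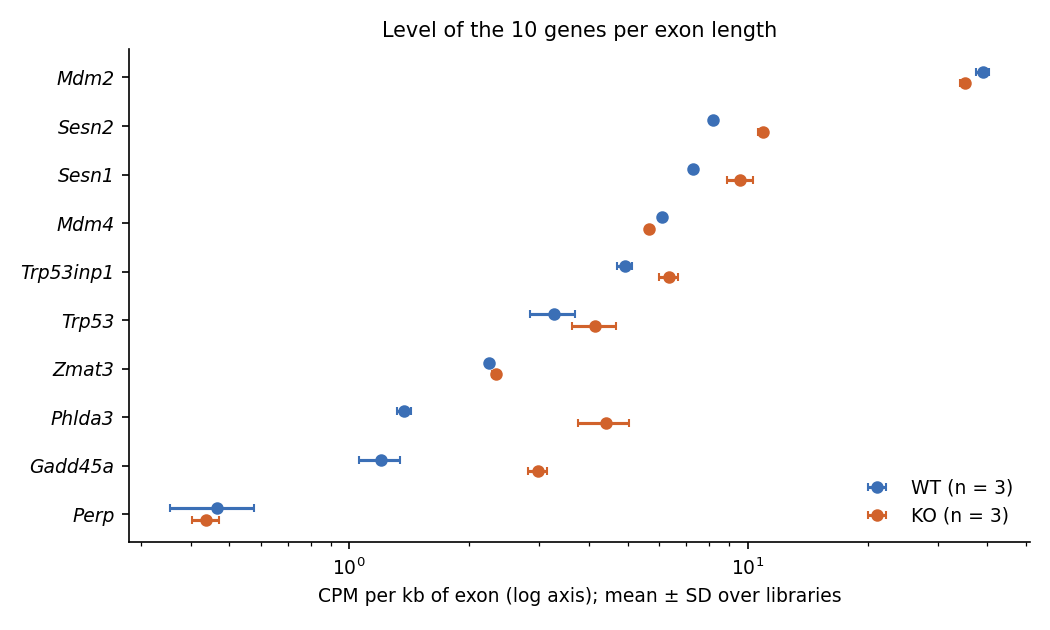
Level of the 10 genes per exon length, in CPM per kb on a log axis, for WT and MLX KO. Points are the mean over the libraries of a genotype, and bars give the SD. *Mdm2* stands apart at the top in both genotypes (38.9 and 35.1 CPM per kb), *Perp* at the bottom (0.465 and 0.436), and *Phlda3* moves from 1.37 to 4.4 CPM per kb.

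Paralogs of the 10 genes showed both directions. Of 8 listed paralogs 7 had enough counts. In MLX KO 3 of these were higher (42.9%, against 24.8% of all genes) and 2 were lower (28.6%, against 20.6%). Their median log2 fold change was 0.24, against 0.03 for all genes. The count of 5 became 3 without WT replicate 3 and 2 without KO replicate 2. *Gadd45b*, a stress gene of the same family as *Gadd45a*, had 80, 34 and 58 counts in WT against 94, 145 and 129 in MLX KO. Its libraries did not overlap in CPM, and the mean rose from 3.22 ± 1.03 to 6.57 ± 1.6 CPM (log2 fold change 1.01, SE 0.24, adjusted p = 0.00557, edgeR). *Gadd45g*, the remaining family member, had a log2 fold change of 0.24 (adjusted p = 0.206). *Trp53inp2*, an autophagy regulator, rose from 133 ± 2.78 to 157 ± 8.48 CPM (0.24, SE 0.05, adjusted p = 0.0034).

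*Phlda1* had 11, 8 and 3 counts in WT against 24, 20 and 16 in MLX KO, a log2 fold change of 1.33 (SE 0.40, adjusted p = 0.0176, edgeR) that missed the threshold without WT replicate 3 (0.0619) or KO replicate 2 (0.0504), in DESeq2 (0.0633) and in DESeq2 with the pair number as a block (0.119). *Phlda2*, with at most 3 counts in any library, was not tested. Unlike *Sesn1* and *Sesn2*, the third sestrin gene *Sesn3* was lower in MLX KO, at 31.6 ± 0.454 against 27 ± 0.92 CPM (log2 fold change −0.22, SE 0.06, adjusted p = 0.0146). That decrease was −0.09 (adjusted p = 0.314) on library size alone and missed the threshold without KO replicate 2 (0.0675) and with the pair number as a block in DESeq2 (0.0996). *Trp63*, the p53 family member that guards oocytes and is also expressed in male germ cells, had 49, 45 and 56 counts in WT against 38, 31 and 32 in MLX KO. Its decrease (log2 fold change −0.68, SE 0.19, adjusted p = 0.0145) missed the threshold without WT replicate 3 (0.0551), KO replicate 2 (0.0519) or KO replicate 3 (0.0549), in DESeq2 (0.0589) and in DESeq2 with the pair number as a block (0.166). *Trp73* was low, at 8 to 15 counts in each library, and its log2 fold change was 0.05 (adjusted p = 0.92).

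Among 17 regulators of p53 tested, 1 was higher in MLX KO (5.88%, against 24.8% of all genes) and 4 were lower (23.5%, against 20.6%). Their median log2 fold change was −0.08. On library size alone the split was 4 higher and 3 lower, and the median turned to 0.06. The count under TMM of 5 became 9 without KO replicate 1. *Atm* and *Chek2*, which encode kinases that activate p53 after DNA damage, did not pass. *Atm* had a log2 fold change of 0.16 (adjusted p = 0.207, edgeR), which passed on library size alone (0.30, adjusted p = 0.0487) and with pair 1 left out (0.32, adjusted p = 0.0174). *Chek2* had a log2 fold change of 0.35 (adjusted p = 0.212). *Cdkn2a*, the locus of the MDM2 inhibitor ARF, had 57, 63 and 65 counts in WT against 52, 39 and 60 in MLX KO (−0.40, adjusted p = 0.117). *Mapk14*, encoding the stress kinase p38α, was the gene that rose, from 14.9 ± 1.61 to 22.8 ± 2.64 CPM (0.61, SE 0.11, adjusted p = 0.00103).

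The regulators that fell act in both directions on p53. *Hipk2*, a kinase that activates p53, fell from 20.1 ± 0.648 to 14.3 ± 1.14 CPM (log2 fold change −0.49, SE 0.09, adjusted p = 0.00105, edgeR). *Ppm1d*, the WIP1 phosphatase that switches off p53 signalling, fell from 465 ± 5.1 to 380 ± 12.4 CPM (−0.29, SE 0.05, adjusted p = 0.000559). *Cop1* (listed under its older symbol *Rfwd2*), a ubiquitin ligase for p53, fell from 154 ± 5.88 to 126 ± 4.34 CPM (−0.29, SE 0.05, adjusted p = 0.000936). *Aurka*, a mitotic kinase named here after its values were seen, had a log2 fold change of −0.18 (adjusted p = 0.0459) that missed the threshold whenever a library other than KO replicate 1 was left out (adjusted p = 0.0755 to 0.198), and on library size alone (0.562).

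A wider list of p53 targets outside the 10 genes was read in the same fit. Of 33 tested, 18 were higher (54.5%, against 24.8% of all genes), 3 were lower (9.09%, against 20.6%) and 12 did not pass. Their median log2 fold change was 0.36. Leaving out single libraries gave between 14 and 25 genes that passed, the lowest of these without KO replicate 2 and the highest without KO replicate 1. The members of the list that rose most were *Igfbp3*, *Fas* and *Dcxr*. *Igfbp3*, which binds insulin-like growth factors, had 66, 38 and 35 counts in WT against 219, 248 and 249 in MLX KO (log2 fold change 2.27, SE 0.18, adjusted p = 8.01e-06, edgeR). *Fas*, the death receptor gene, had 6, 8 and 7 counts in WT against 33, 29 and 29 in MLX KO (1.99, SE 0.29, adjusted p = 0.000341). The list was chosen with earlier results of these data known, so its counts are not independent evidence. *Fas* and *Igfbp3* were also singled out by the study in these same samples. *Dcxr*, a carbonyl reductase gene, had 16, 23 and 18 against 64, 83 and 72 counts (1.83, SE 0.24, adjusted p = 0.000187).

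*Ccng1*, encoding cyclin G1, rose from 16.9 ± 1.55 to 29.7 ± 3.75 CPM (log2 fold change 0.81, SE 0.10, adjusted p = 0.000139, edgeR). The other 12 genes that rose without being named had log2 fold changes of 0.24 to 1.6. *Cdkn1a*, which encodes the cell cycle inhibitor p21 and is the most used readout of p53, had 166, 153 and 190 counts in WT against 204, 258 and 212 in MLX KO. Its mean was 9.73 ± 0.981 in WT against 12 ± 1.99 CPM in MLX KO, and the log2 fold change of 0.30 (SE 0.13) had an adjusted p of 0.0842. It passed on library size alone (0.44, adjusted p = 0.0279) and without KO replicate 1 (0.39, adjusted p = 0.0285), and was at 0.17 (adjusted p = 0.32) without KO replicate 2 and 0.23 (adjusted p = 0.248) without WT replicate 1.

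*Bax*, an effector of mitochondrial permeabilisation, rose from 6.28 ± 0.344 to 8.08 ± 0.618 CPM (log2 fold change 0.36, SE 0.12, adjusted p = 0.0281, edgeR). *Bbc3*, encoding the BH3-only protein PUMA, had 32, 27 and 34 counts against 49, 48 and 54 (0.59, SE 0.19, adjusted p = 0.0247). *Pmaip1*, encoding the BH3-only protein NOXA, was lower, at 81, 72 and 64 counts in WT against 61, 48 and 55 in MLX KO (−0.51, SE 0.17, adjusted p = 0.0272). These 3 calls were weak, and DESeq2 gave adjusted p of 0.134 for *Bax*, 0.147 for *Bbc3* and 0.0825 for *Pmaip1*. Without KO replicate 2 the adjusted p was 0.0938 for *Bax*, 0.0612 for *Bbc3* and 0.0962 for *Pmaip1*. Without WT replicate 1 it was 0.0672, 0.0797 and 0.0758 in the same order, and without WT replicate 2 it was 0.0973, 0.0734 and 0.1. Without KO replicate 3 *Bbc3* was at 0.0841 and *Pmaip1* at 0.0741.

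The other targets that fell were *Ak1* and *Fbxw7*. *Ak1*, encoding a cytosolic adenylate kinase, fell from 210 ± 4.1 to 164 ± 9.32 CPM (log2 fold change −0.35, SE 0.05, adjusted p = 0.000369, edgeR). *Fbxw7*, the substrate receptor of a ubiquitin ligase, was at 58.8 ± 1.5 CPM in WT against 51.5 ± 3.74 CPM in MLX KO (−0.19, SE 0.06, adjusted p = 0.0281). Its call was lost on library size alone (−0.05, adjusted p = 0.512) and without WT replicate 2 (0.0811), WT replicate 3 (0.0809), KO replicate 2 (0.13) or KO replicate 3 (0.0537), and with the pair number as a block in DESeq2 (0.0871).

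**Figure D4:**
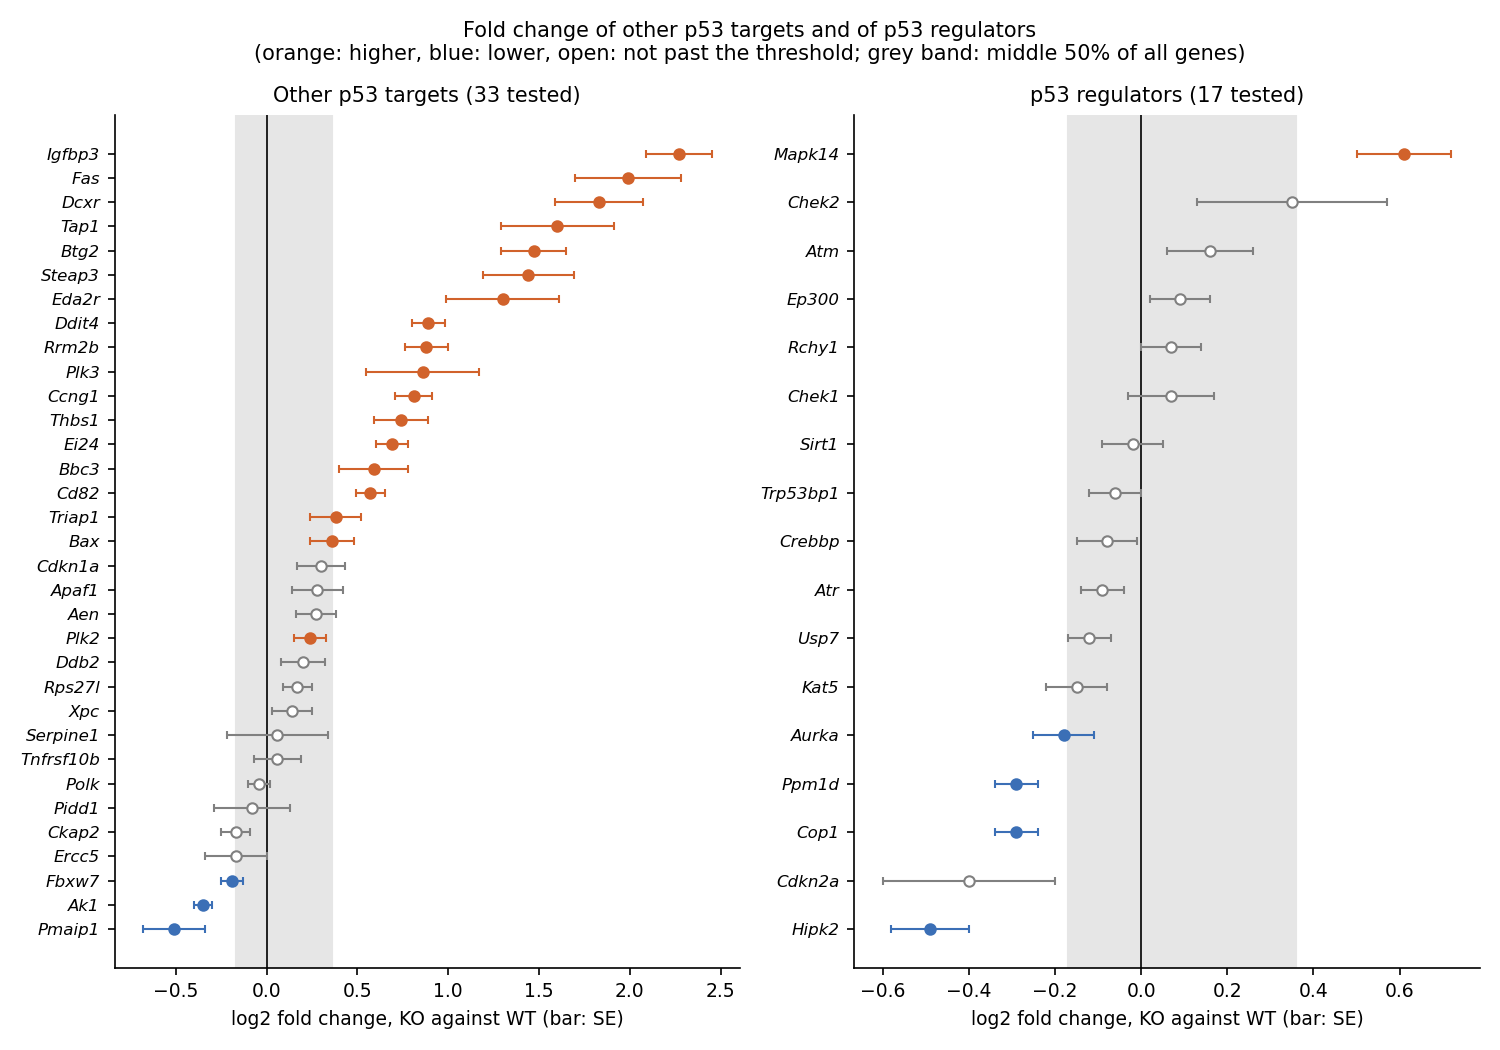
Log2 fold change of MLX KO over WT for each tested gene of the wider p53 target list and of the p53 regulators, filled where the adjusted p was under 0.05. Of the 33 targets 18 are filled on the right of 0 and 3 on the left, with *Igfbp3* (2.27) farthest right, and of the 17 regulators 1 is filled on the right and 4 on the left.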

How the data were processed

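The deposited table gives raw counts per gene for 3 WT and 3 MLX KO testes libraries, which the authors made from paired-end Illumina reads aligned to mm10 with TopHat (bcl2fastq 1.8.4 in the submitters' processing notes). The counting tool, annotation and strand setting were not given in the sources used here. Columns of the authors' own comparison (mean, fold change, its error, statistic and p-values) were not used, and chromatin immunoprecipitation samples were left out. Of 17933 rows, 2 repeat a symbol.

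Genes were filtered with filterByExpr (minimum count 10), scaled with TMM and tested with edgeR's quasi-likelihood test (edgeR 4.0.16, R 4.3.3) on genotype alone, with Benjamini-Hochberg adjustment over all 14640 genes and a threshold of 0.05. The steps were first tested on simulated data. SE is the log2 fold change divided by the root of F. Ratios of counts used a pseudocount of 0.5 and two-sided exact permutation tests (scipy 1.17.1). Exon lengths and gene positions came from GENCODE vM21 and promoters from RefSeq. Alternatives were DESeq2 1.42.0, DESeq2's size factors, library size alone, other filters, the pair number as a block, each library left out, and pair 1 left out, the last chosen after the data were seen.

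The titles call the libraries paired replicates, and the study describes littermate pairs. Same-numbered libraries correlated at 0.145, 0.0363 and 0.121 in their deviations from the group means, and other pairs at −0.123 to 0.033. The KO and WT libraries are separate animals, so p-values measure the spread between animals.

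The 10 genes and all lists were chosen with earlier results of these data known. Named genes were the 10, their paralogs, *Cdkn1a*, *Bax*, *Bbc3*, *Pmaip1*, *Fas*, *Ccng1*, *Atm*, *Chek2*, *Cdkn2a* and *Mlx*, and from the target and regulator lists up to 3 with the largest change in each direction that passed and moved alike in all 3 pairs. *Setd8* and *Tigar* had no row, and *Gdf15* and *Psrc1* too few counts.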

Additional observations from a re-analysis of the deposited data

How the results depend on the processing

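The number of the 10 genes that passed ranged from 5 to 8 over 14 alternatives, and the number of all genes from 4604 (DESeq2 with the replicate block) to 7395. With the pair number as a block in edgeR 7 of the 10 passed, the same number as without it. The block in edgeR changed no call of any named gene. Paralogs passed in number 3 with DESeq2, 2 with the DESeq2 block, and 2 to 5 with single libraries left out. Regulators numbered 9 with pair 1 left out and 4 to 9 with single libraries left out. The other targets numbered 13 with the DESeq2 block. Signs turned on library size alone for *Mdm4* (0.03) and *Perp* (0.04), and with single libraries left out for *Perp* (−0.25 to 0.08), *Trp73* (−0.12 to 0.21) and the *Sesn2* to *Sesn1* ratio (−0.01 to 0.07). The *Mdm2* to *Trp53* ratio kept its sign, at −0.62 to −0.38. On library size alone all genes split into 5343 higher and 1268 lower, against 3634 and 3015, and the 10 genes into 7 higher and 0 lower. KO replicate 1 stood apart from KO replicates 2 and 3, with a chi-square of the counts per degree of freedom of 8.26 and 8.25. That value was 2.73 between KO replicates 2 and 3, and 2.99 to 4.27 between WT libraries. Without KO replicate 1 more genes passed, 7395 against 6649. Without a library the fit has fewer animals, and the cause of a changed call was not tested. Of 501 values of 36 named genes, 56 lost their call, 6 gained one and 6 changed sign. Low counts limit *Perp*, *Trp73* and *Phlda1*.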
